A study of Mus musculus with 200 samples.

Results

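The interleukin-1 (IL-1) family and its receptors were followed at the transcript level in mouse brain after closed-head injury (CHI), a single impact on the intact skull. The members were the 10 genes listed under the names Il1r1, Il1r2, Il1rap, Il1rn, Il1a, Il1b, Il18, Il33, Il1rl1 and Myd88, each found once, of 56941 genes in all. IL-1α (Il1a) and IL-1β (Il1b) bind the signalling receptor Il1r1, which recruits the accessory chain Il1rap and, through the adaptor Myd88, activates NF-κB and stress kinases. Il1r2 is a decoy receptor that binds ligand without signalling, and Il1rn is the secreted receptor antagonist. Il18 and Il33 are family cytokines with receptors of their own, that of Il33 being Il1rl1 (ST2) together with Il1rap. In the brain, IL-1 signalling is known for its part in inflammation after injury, with endothelial cells among the cells that carry Il1r1.

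Bulk RNA-seq was made from brain tissue, 1 hemisphere per mouse in the study's methods. Fewer cells of a type and less RNA per cell therefore cannot be told apart in any value given here. Of 200 mice 67 were sham (anaesthesia and scalp incision without impact) and the others CHI. They carried 4 strain labels, C57BL/6J and 3 that begin with IL-1R1 and go on with gKO, eRestore or nRestore, and were taken 9, 24 or 72 h after surgery at ages of 3.3 to 7.67 months. In that order of times, CHI and sham mice numbered 15 and 6, 14 and 6, and 14 and 6 in C57BL/6J. They numbered 13 and 6, 12 and 6, and 12 and 6 in gKO mice, 12 and 6, 9 and 5, and 12 and 6 in eRestore mice, and 6 and 4, 8 and 5, and 6 and 5 in nRestore mice. Both sexes were present in every group except the nRestore mice at 72 h, which were all labelled male, and 1 male each was labelled in the nRestore CHI and sham groups at 9 h and the nRestore CHI group at 24 h. The allele behind each IL-1R1 label, the cells in which a restored allele would be active, the meaning of g, e and n and the background of those 3 strains are not given in the sources used here. The tissue steps (perfusion with PBS, 1 hemisphere, poly(A) selection) are given in the study's methods for the C57BL/6J mice.

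Total estimated counts ran from 14857985 to 57355676 per mouse, with a median of 20258936. The labels name 8 experiments, of which 3 hold the mice at 9 h and 0 hold both 9 h and later mice, and surgery was done in the morning, so time after surgery, experiment and time of day cannot be told apart. Counts of Xist and Ddx3y went against the labelled sex in 2 of 200 mice. These, an eRestore sham mouse at 24 h and an nRestore CHI mouse at 72 h, both labelled male, had counts of a female, and leaving them out changed no call of a member. Levels between genes are compared as TPM (an abundance that allows for transcript length), and levels of 1 gene between mice as CPM (counts scaled to library size by TMM). Differences are log2 fold changes with their standard error (SE), and adjusted p is that of edgeR's quasi-likelihood test after Benjamini-Hochberg adjustment over all genes tested in the comparison, called under 0.05.

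Seen in sham mice of all 4 strains, the family fell into abundant and scarce members. Il33, a nuclear cytokine of glial cells, had the highest median level in each strain, at 68.5 TPM in C57BL/6J, 56.1 TPM in gKO, 64.3 TPM in eRestore and 54.8 TPM in nRestore mice. Il18, which is made as a precursor and cut by caspase-1, followed at 30.4 to 34.5 TPM, and Il1rap at 18.4 to 20.8 TPM. In C57BL/6J sham mice the lowest Il33 value (52.9 TPM) lay above the highest Il18 value (39.4 TPM), whereas Il18 (15.3 to 39.4 TPM) and Il1rap (15.1 to 22.5 TPM) overlapped. Myd88 stood at medians of 3.95 to 4.26 TPM and Il1r1 at 1.91 to 3.87 TPM. The ranges of Myd88 (2.11 to 5.50 TPM) and Il1r1 (0.998 to 2.91 TPM) overlapped in C57BL/6J sham mice.

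The ligands of Il1r1, its decoy and its antagonist were near the limit of detection. Sham medians were 0.634 to 0.781 TPM for Il1a, 0.268 to 0.596 TPM for Il1b, 0.276 to 0.412 TPM for Il1r2 and 0.082 to 0.158 TPM for Il1rl1. Il1a, Il1b and Il1r2 overlapped in every strain, and their order is not read. A median mouse held 16 counts of Il1a, 6 of Il1rl1, 5 of Il1b and 3 of Il1r2. Il1rn had a median of 0 in every strain and 0 counts in the majority of the 200 mice. For a scarce gene these counts limit what can be detected, and counting intervals given here cover counting error only.

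**Figure D1:**
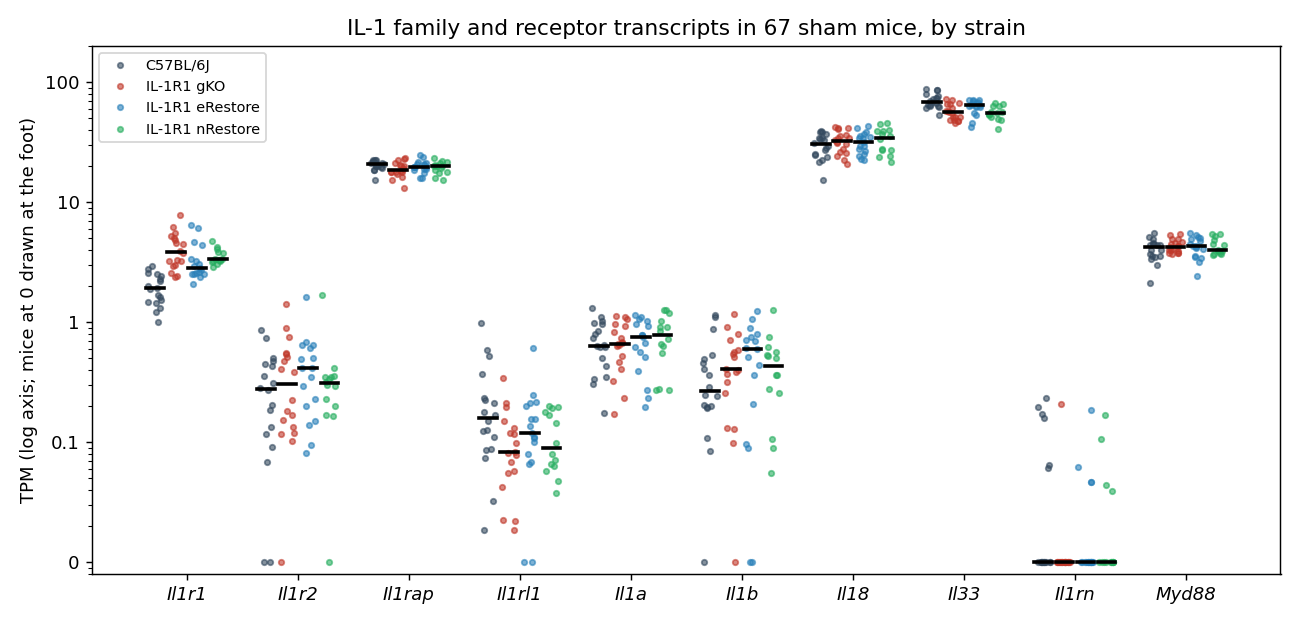
Levels of the 10 members in 67 sham mice on a log axis of TPM, 1 point a mouse, coloured by strain, with black bars at the medians and mice at 0 drawn at the foot. Il33, Il18 and Il1rap are the most abundant, Il1rn lies at 0 in most mice, and the C57BL/6J median of Il1r1 (1.91 TPM) lies below those of the other 3 strains.

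Il1r1 lies at chr1:40264174-40356417 on the plus strand (GRCm39), a gene of 9 annotated transcripts with up to 14 exons, between the decoy Il1r2 (chr1:40113239-40164391) and Il1rl1 (chr1:40468730-40504575). It was the first member to be examined in each strain because the strain labels name it. In sham mice over all times, C57BL/6J ranged from 2.95 to 7.48 CPM (median 4.93, n = 18). The mice labelled gKO ranged from 6.09 to 17.8 CPM (median 9.71, n = 18), the eRestore mice from 5.31 to 16.7 CPM (median 7.06, n = 17) and the nRestore mice from 7.33 to 12.4 CPM (median 8.38, n = 14). Il1r1 counts were thus higher, not lower, in the mice labelled gKO, and 14 of 18 of them lay above every C57BL/6J sham mouse. The same held for 7 of 17 eRestore and 12 of 14 nRestore sham mice.

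Against sham C57BL/6J, with time and sex as covariates, Il1r1 was higher by 1.06 on the log2 scale in the mice labelled gKO (SE 0.13, 95% interval 0.80 to 1.31, adjusted p = 5.92e-09). It was higher by 0.77 in eRestore (SE 0.13, 0.51 to 1.03, adjusted p = 3e-05) and by 0.88 in nRestore mice (SE 0.14, 0.61 to 1.15, adjusted p = 2.39e-06). Among the 3 IL-1R1 strains the means were 10.2 ± 3.24 CPM (SD) in gKO, 8.92 ± 1.54 CPM in nRestore and 8.22 ± 3.17 CPM in eRestore mice. The gaps between neighbours in that order were smaller than their SDs, and no order among these strains is read. At 9 h the groups did not overlap: all 6 gKO, 6 eRestore and 4 nRestore sham mice lay above all 6 C57BL/6J sham mice. At 24 h the C57BL/6J sham median was 6.35 CPM, against 3.66 CPM at 9 h and 4.15 CPM at 72 h, and only 2 of 5 eRestore and 3 of 5 nRestore sham mice lay above the C57BL/6J range.

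Fitted within 1 time point, the gKO difference was called at each time, 1.09, 0.86 and 1.24 on the log2 scale at 9, 24 and 72 h. The eRestore difference was called at 9 h (1.07) but not at 24 h (0.54, adjusted p = 0.269) or 72 h (0.70, adjusted p = 0.155), and the nRestore difference at 9 h (1.09) and 72 h (1.09) but not at 24 h (0.49, adjusted p = 0.235). With summed meningeal and choroid plexus markers as covariates the all-time values were 0.97, 0.70 and 0.91, all called. Gene-level counts do not show which exons the reads came from. Il1r1 overlaps the annotated gene Gm38070 on the same strand, and the effect of this on its counts was not tested. The length of Il1r1 transcript implied by the 2 tables, relative to its mean over all mice, had medians between 0.995 and 1.00 in all 8 strain and surgery groups. Il1r1 was not the leading difference of any strain, ranking 24th by p in gKO and 85th in eRestore mice of 18994 genes, and below that in nRestore mice.

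**Figure D2:**
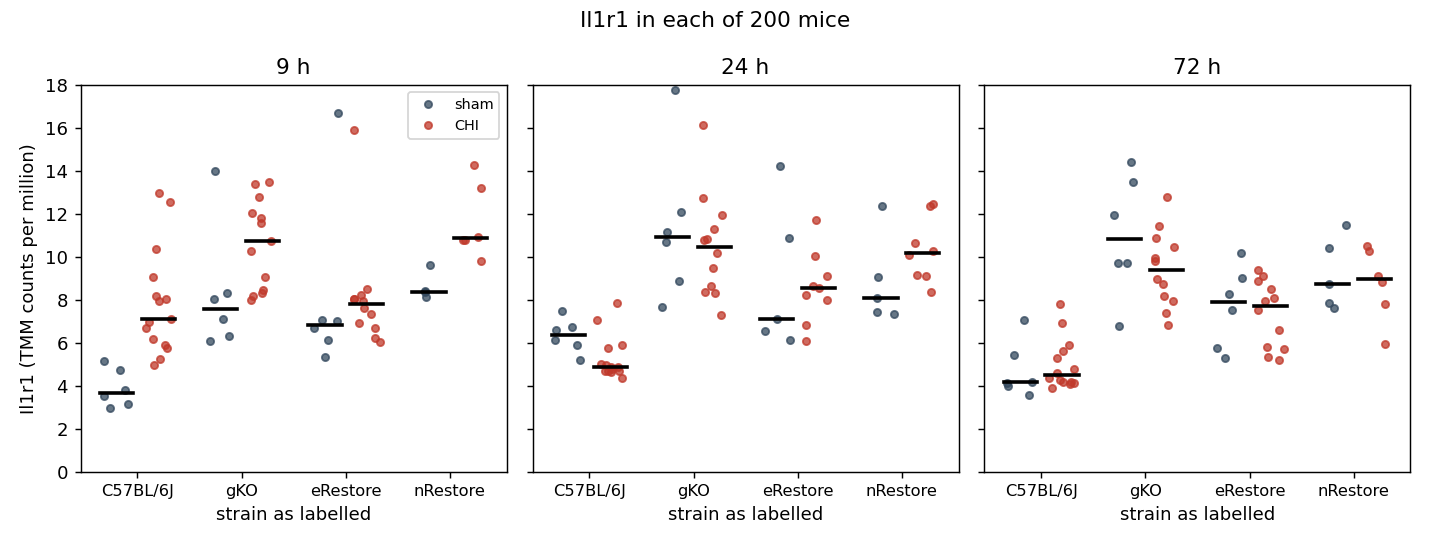
Il1r1 in each of 200 mice as CPM, with a panel for each time after surgery, strains along the axis, CHI and sham mice side by side and black bars at the medians. C57BL/6J sham mice at 9 h (2.95 to 5.13 CPM) lie below every sham mouse of the other strains, and their CHI mice at 9 h reach 4.96 to 13.0 CPM.

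Genes around Il1r1 were compared as well, since the strain labels name this gene's product. Within 5 Mb of its start, 83 other genes were tested in each strain, of which 2 were called in gKO (2.41%), 3 in eRestore (3.61%) and 6 in nRestore mice (7.23%), beside 4.42%, 4.29% and 14.5% of all genes. The one gene called in all 3 was Gm8210, a predicted gene, at 0 counts in 16 of 18 sham C57BL/6J mice and at most 1 count in the others. In the IL-1R1 strains it was either absent or abundant, from 0 to 1414 counts in gKO (median 211), 0 to 1167 in eRestore (median 273) and 0 to 1105 in nRestore sham mice (median 345). The nearby receptor genes Il1r2, Il1rl2 and Il1rl1 were tested and not called in any strain.

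**Figure D3:**
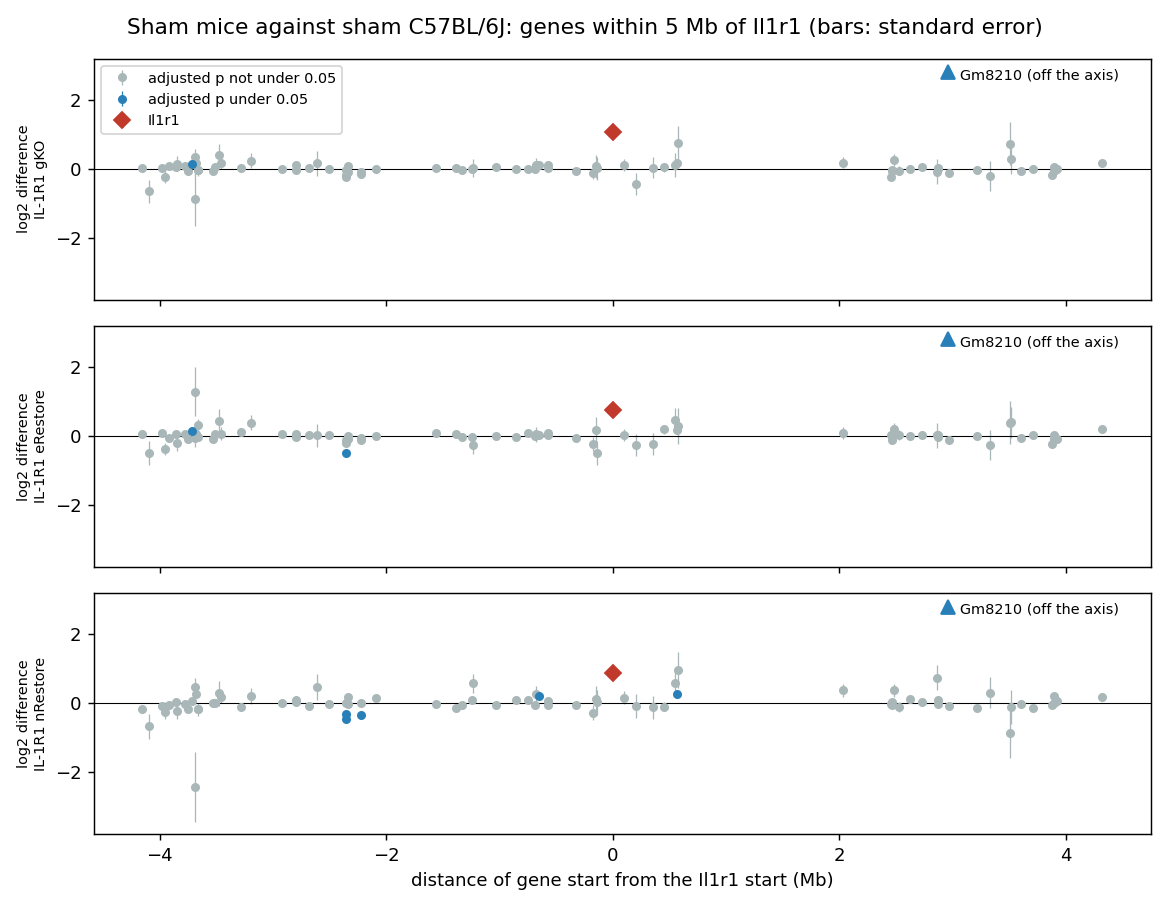
Log2 difference of sham mice of each IL-1R1 strain from sham C57BL/6J for genes within 5 Mb of Il1r1, plotted against the distance of their start from that of Il1r1, with bars at 1 SE. Il1r1 (diamond, 1.06, 0.77 and 0.88) stands above its called neighbours apart from Gm8210, which is off the axis because C57BL/6J mice held almost no counts.

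Of 9 members tested in sham mice, 3 were called in gKO (4.42% of 18994 genes were called), 2 in eRestore (4.29%) and 2 in nRestore mice (14.5%). The members' median difference was 0.06, 0.06 and 0.12 on the log2 scale in that order, against 0.01 over all genes in each comparison. Beside Il1r1, the call common to the strains was Il33. Its sham levels were 65.97 to 104 CPM in C57BL/6J (median 86.3), 52.8 to 85.1 CPM in gKO (median 65.1), 48.4 to 98.8 CPM in eRestore (median 73.9) and 51.8 to 83.7 CPM in nRestore mice (median 64.9). The ranges overlapped, with 9 of 18, 4 of 17 and 8 of 14 mice below every C57BL/6J sham mouse. Il33 was lower, with log2 differences of -0.34 in gKO (SE 0.07, adjusted p = 0.00026), -0.23 in eRestore (SE 0.07, adjusted p = 0.0277) and -0.34 in nRestore mice (SE 0.07, adjusted p = 0.000458). The nRestore call was lost with experiment as a covariate (-0.24, adjusted p = 0.0967) and the eRestore call with the marker sums (-0.21, adjusted p = 0.0727).

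The accessory chain Il1rap had a median of 39.6 CPM in sham mice labelled gKO and 43.5 CPM in C57BL/6J, a called difference of -0.17 on the log2 scale (SE 0.05, adjusted p = 0.0335). The values in eRestore (-0.11, adjusted p = 0.275) and nRestore mice (-0.13, adjusted p = 0.088) did not pass, and the gKO call was lost with gene-length offsets in DESeq2 (adjusted p = 0.0534) and with the marker sums as covariates (adjusted p = 0.0584). Il1a, Il1b, Il18, Il1r2, Il1rl1 and Myd88 were tested and not called in any strain, and Il1rn was below the filter. Since the 3 comparisons share the C57BL/6J sham mice, they are not independent of each other. Summed astrocyte markers had medians of 662 TPM in C57BL/6J and 712, 739 and 720 TPM in gKO, eRestore and nRestore sham mice. Summed oligodendrocyte markers, of another cell type known to hold Il33, had medians of 5206 TPM in C57BL/6J and 4471, 4508 and 4792 TPM in those strains, lower in all 3 as Il33 was, and their part in the Il33 difference was not tested.

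In the main fits of CHI against sham, members were called at 9 h only. Il1r1 and Myd88 rose in C57BL/6J mice, and Il1rn joined them in the fit of all 4 strains, where only CHI mice carried it past the count filter. Of 9 members tested in C57BL/6J at 9 h, 2 were called, where 14.1% of 16967 genes were, and the members' median log2 fold change was 0.43 against -0.01 for all genes. In the mice labelled gKO 0 of 7 were called (0.199% of all genes), in eRestore 0 of 9 (7.34%) and in nRestore 0 of 8 (0.608%), with medians of 0.14, 0.05 and 0.06. Among those 24 tests, 3 had an unadjusted p under 0.05 and DESeq2 called 0. Over all 4 strains, with strain, sex and age as covariates, 3 of 10 members were called, where 23.9% of 18741 genes were, with a median of 0.30 against -0.00. The counts of member calls in C57BL/6J mice and over all strains lay near these shares of all genes. No excess of calls among the members is read from them.

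Il1r1 ranged from 4.96 to 13.0 CPM (median 7.11, n = 15) in C57BL/6J CHI mice at 9 h and from 2.95 to 5.13 CPM (median 3.66, n = 6) in their sham mice. Of the CHI mice, 14 of 15 lay above every sham mouse. The log2 fold change was 1.02 (SE 0.19, 95% interval 0.63 to 1.41, adjusted p = 0.000663), a 2.03-fold rise. Within the experiments the ratio of medians was 2.23 (10 CHI, 4 sham) and 1.44 (5 CHI, 2 sham). With meningeal and choroid plexus marker sums as covariates the value was 1.10 (adjusted p = 0.000383).

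In the IL-1R1 strains at 9 h, where sham levels of Il1r1 were already higher, no change passed the test. The mice labelled gKO ranged from 7.97 to 13.5 CPM after CHI (median 10.8, n = 13) and from 6.09 to 14.0 CPM in sham (median 7.56, n = 6), with a log2 fold change of 0.34 (SE 0.14, 0.06 to 0.62, adjusted p = 0.355). The nRestore CHI mice (9.80 to 14.2 CPM, median 10.9, n = 6) all lay above the 4 sham mice, at 8.12, 8.36, 8.39 and 9.61 CPM, with a log2 fold change of 0.46 (SE 0.14, 0.16 to 0.75, adjusted p = 0.16). The eRestore mice ranged from 6.02 to 15.9 CPM after CHI (median 7.79, n = 12) and from 5.32 to 16.7 CPM in sham (median 6.85, n = 6), with a log2 fold change of -0.02 (SE 0.22, -0.48 to 0.44, adjusted p = 0.967). The last group holds a sham mouse at 16.7 CPM, more than any CHI mouse, and the gKO group one at 14.0 CPM. These 2 mice had the highest (6275 TPM) and the third highest (3347 TPM) summed choroid plexus markers of the 22 sham mice at 9 h. The second highest (5996 TPM) was a C57BL/6J mouse with 5.13 CPM of Il1r1, the highest of the 6 C57BL/6J sham mice at that time. The next sums were 1225 TPM in a C57BL/6J mouse (3.52 CPM of Il1r1), 911 TPM in an nRestore mouse (9.61 CPM) and 883 TPM in an eRestore mouse (6.12 CPM). The relation of Il1r1 to these sums in sham mice was not tested. Without the outlying eRestore mouse the eRestore value was 0.27 (-0.10 to 0.64, adjusted p = 0.359), and without the gKO mouse the gKO value was 0.49 (adjusted p = 0.268).

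The difference of the Il1r1 response from that of C57BL/6J at 9 h was -0.65 on the log2 scale in gKO (95% interval -1.16 to -0.14, adjusted p = 0.807), -1.06 in eRestore (-1.65 to -0.46, adjusted p = 0.0724) and -0.70 in nRestore mice (-1.26 to -0.13, adjusted p = 0.511). None passed, and the strains share the C57BL/6J mice. DESeq2 called the eRestore difference (adjusted p = 0.0216). Without the 2 outlying sham mice the eRestore difference was -0.74 (-1.26 to -0.21, adjusted p = 0.175) and the gKO difference -0.48, with an interval that included 0 (-0.995 to 0.036, adjusted p = 0.999). The nRestore mice at 9 h all came from an experiment without C57BL/6J mice. Members called for a difference from C57BL/6J at 9 h numbered 0 of 9 in gKO (0.00567% of genes called), 0 of 9 in eRestore (0.817%) and 0 of 10 in nRestore mice (0.00555%), and at 24 h 0 of 6 (0.0114%), 0 of 7 (0%) and 0 of 6 (0%). At 72 h the counts were 0 of 7 (0%), 0 of 8 (0%) and 0 of 7 (0%), and of all 69 such tests 6 had an unadjusted p under 0.05. Over all strains at 9 h Il1r1 rose by 0.44 on the log2 scale (SE 0.11, 0.23 to 0.66, adjusted p = 0.00113).

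**Figure D4:**
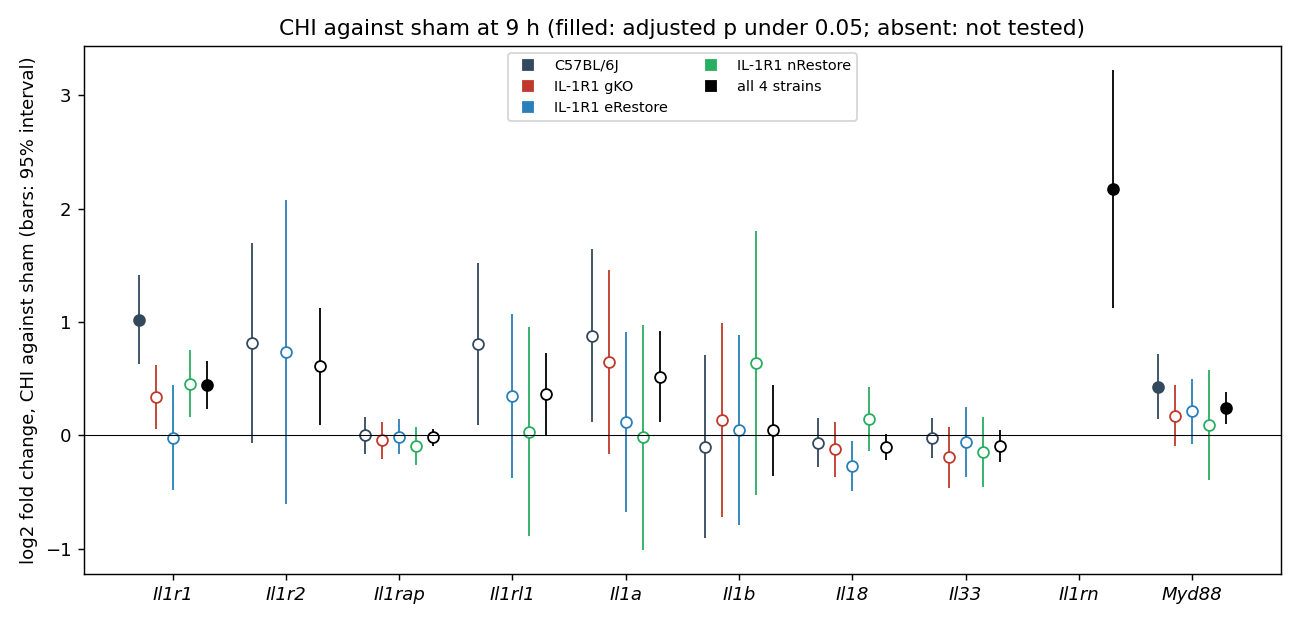
Log2 fold change of CHI against sham mice at 9 h for each member in each strain and over all 4 strains, with bars at the 95% interval, filled where the adjusted p was under 0.05 and absent where a member was below the filter. Il1r1 (1.02) and Myd88 (0.43) in C57BL/6J are the filled single-strain points, and among single strains the bars of the scarce members Il1a, Il1b, Il1r2 and Il1rl1 are the widest.

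Myd88 (chr9:119165000-119170486, minus strand, GRCm39), the adaptor of IL-1, IL-18 and IL-33 receptors and of most Toll-like receptors, changed less. In C57BL/6J mice at 9 h it ranged from 3.38 to 6.40 CPM after CHI (median 4.35) and from 2.24 to 4.21 CPM in sham (median 3.43), with 9 of 15 CHI mice above every sham mouse. The log2 fold change was 0.43 (SE 0.14, 0.14 to 0.72, adjusted p = 0.0402), but leaving out any of 5 of the 6 sham mice ended the call (adjusted p 0.0538 to 0.129). In gKO, eRestore and nRestore mice the values were 0.17, 0.21 and 0.09, none called. Over all strains Myd88 rose by 0.24 (SE 0.07, adjusted p = 0.00958). Myd88 overlaps Acaa1a on the genome, and the strandedness of the counting is not given in the sources used here.

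Il1rn (chr2:24226865-24241506, plus strand, GRCm39), whose product occupies Il1r1 without signalling, was below the count filter in every strain at 9 h. In C57BL/6J the 6 sham mice held 0, 0, 0, 0, 1 and 1 counts and the 15 CHI mice 0 to 25 counts, with 2 of 15 at 0 and 12 of 15 above every sham mouse. Summed over mice, the CHI mice held 20.8 times the sham counts per sequenced count (counting interval 5.64 to 173.9), with 2 counts in all sham mice, and an exact two-sided permutation test of CPM gave p = 0.00203. In the mice labelled gKO the 6 sham mice held 0 counts and the 13 CHI mice 25 in all, with 9 of 13 above 0, which is 4.66 times a floor of 3 counts over the sham group, with a lower counting limit of 3.51 (exact permutation p = 0.0155). The eRestore mice gave a ratio of 1.23 (0.473 to 3.77, exact permutation p = 0.619) and the nRestore mice 2.75 (1.04 to 9.14, exact permutation p = 0.429). In the nRestore CHI mice 3 of 6 held 0 counts, a spread between mice that the counting interval leaves out. Of 38 exact tests of members below the filter in a strain and time, those of Il1rn in C57BL/6J and gKO mice at 9 h were the 2 with a p under 0.05, unadjusted.

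Over all 4 strains at 9 h Il1rn passed the filter and rose by 2.17 on the log2 scale (SE 0.53, 1.13 to 3.22, adjusted p = 0.00115). Fitted without the filter, Il1rn gave 3.88 in C57BL/6J (adjusted p = 0.00196) and 4.04 in gKO mice (1.53 to 6.54, adjusted p = 0.266). It gave 0.61 in eRestore (adjusted p = 0.795) and 0.70 in nRestore mice (adjusted p = 0.935), so only the C57BL/6J value passed. The eRestore sham mouse with the highest Il1r1 was also the one with the most Il1rn of its group (5 counts, 0.18 CPM). At 24 and 72 h the median of Il1rn was 0 CPM in 14 of 16 groups, the exceptions being the CHI mice labelled gKO at 24 h (0.0173 CPM) and 72 h (0.0493 CPM), and the highest value of any mouse was 0.393 CPM.

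**Figure D5:**
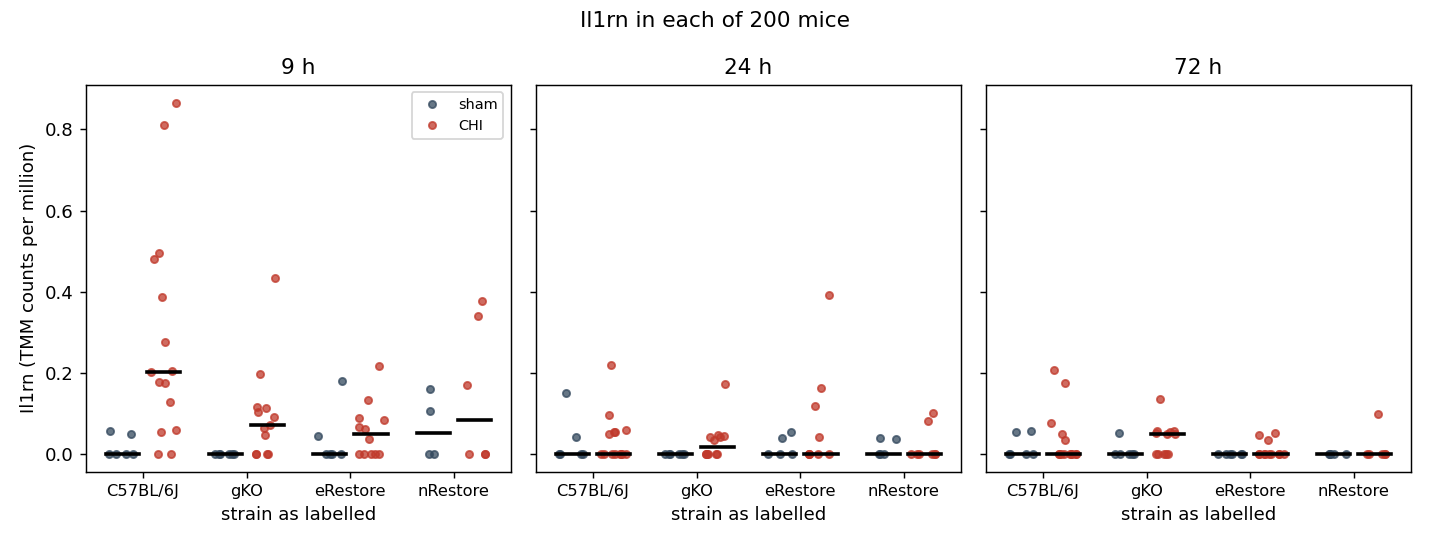
Il1rn in each of 200 mice as CPM, with a panel for each time after surgery, CHI and sham mice of each strain side by side and black bars at the medians. At 9 h the C57BL/6J CHI mice spread from 0 to 0.866 CPM and their sham mice from 0 to 0.0559 CPM, and at later times most mice lie at 0.

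The sequences before the starts of the 3 members that rose are shown to place common motifs in them. RefSeq windows of 300 bases (250 before and 50 after a start, GRCm38.p6) were found for all 10 members, 15 windows in all, and were searched on both strands for an NF-kB type motif (GGGANNNNCC), an AP-1 motif (TGANTCA) and the glucocorticoid receptor half-site AGAACA. Each was found in 2 of 15 windows, where 20.7%, 7.81% and 19% of 32851 windows held it. The NF-kB type motif stood in Il1rn and Il1rap, AP-1 in Il1rn and Il1a, and the half-site in Il1r1 and Il18. The 250 bases before the start are printed 5′ to 3′ on the strand of the gene, in lower case with a match in capitals. The first Il1r1 window and that of Myd88 held no match, and neither did 2 further Il1rn windows, which are not printed.
Il1r1, chr1:40224830-40225079, plus strand: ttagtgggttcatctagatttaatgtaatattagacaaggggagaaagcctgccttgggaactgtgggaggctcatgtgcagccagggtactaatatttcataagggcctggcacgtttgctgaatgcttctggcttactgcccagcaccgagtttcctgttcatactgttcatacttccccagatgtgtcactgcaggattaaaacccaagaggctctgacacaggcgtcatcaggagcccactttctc
Il1r1, chr1:40266336-40266585, plus strand: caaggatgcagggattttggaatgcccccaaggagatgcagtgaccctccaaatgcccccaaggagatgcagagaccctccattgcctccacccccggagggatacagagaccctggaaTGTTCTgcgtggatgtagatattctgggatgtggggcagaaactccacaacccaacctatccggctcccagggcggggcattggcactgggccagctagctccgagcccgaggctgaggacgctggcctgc
Il1rn, chr2:24336610-24336859, plus strand: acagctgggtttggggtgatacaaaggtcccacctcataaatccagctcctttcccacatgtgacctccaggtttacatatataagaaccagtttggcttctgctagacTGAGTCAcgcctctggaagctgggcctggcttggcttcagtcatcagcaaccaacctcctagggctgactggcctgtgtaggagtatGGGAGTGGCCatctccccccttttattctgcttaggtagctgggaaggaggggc
Myd88, chr9:119340019-119340268, minus strand: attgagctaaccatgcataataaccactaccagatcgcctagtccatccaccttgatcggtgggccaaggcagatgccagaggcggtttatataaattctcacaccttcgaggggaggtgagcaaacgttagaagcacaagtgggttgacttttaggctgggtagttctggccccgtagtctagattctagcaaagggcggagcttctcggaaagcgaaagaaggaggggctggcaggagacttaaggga
The capitals mark the half-site in the second Il1r1 window and, in Il1rn, the AP-1 motif followed by the NF-kB type motif, which began 54 bases before the start. A match describes letters in the window, and binding was not measured.

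The ligands themselves did not pass the test at 9 h. Il1a in C57BL/6J ranged from 0.137 to 1.78 CPM after CHI (median 0.658) and from 0.193 to 0.562 CPM in sham (median 0.371), with 11 of 15 CHI mice above every sham mouse and a log2 fold change of 0.88 (adjusted p = 0.119). Over all strains it was 0.52 (SE 0.20, 0.11 to 0.92, adjusted p = 0.0519), which passed in DESeq2 (adjusted p = 0.0411). Il1b gave 0.04 over all strains (SE 0.20, -0.36 to 0.45, adjusted p = 0.906). In C57BL/6J its medians were 0.453 CPM in CHI and 0.392 CPM in sham mice, which overlapped. Il1a and Il1b overlap other annotated transcripts, among them the antisense Il1bos, from which their reads cannot be told apart here. Il33 (-0.09, SE 0.07, -0.24 to 0.05) and Il18 (-0.10, SE 0.06, -0.21 to 0.01) were not called over all strains, nor in any strain.

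Of the other receptors at 9 h, Il1rap was not called, at -0.02 over all strains (SE 0.04, 95% interval -0.09 to 0.06, adjusted p = 0.812). The decoy Il1r2 had a median of 0.412 CPM in C57BL/6J CHI and 0.201 CPM in sham mice, which overlapped, with log2 fold changes of 0.81 in that strain (adjusted p = 0.222) and 0.61 over all (SE 0.26, adjusted p = 0.0778). Il1rl1 had medians of 0.481 and 0.284 CPM, with 0.80 in C57BL/6J (adjusted p = 0.129) and 0.36 over all (SE 0.18, adjusted p = 0.147). In C57BL/6J mice at 9 h the median counts were 9 in CHI and 4 in sham mice for Il1r2, and 12 and 7.5 for Il1rl1.

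At 24 and 72 h no member was called in any strain. Members tested at 24 h were 6 in each strain, where 0.404% of genes were called in C57BL/6J, 0.0059% in gKO, 0% in eRestore and 0% in nRestore mice. At 72 h they were 7 in C57BL/6J (0% of genes called) and 6 in gKO (0%), eRestore (0.00605%) and nRestore mice (0.0121%). Over all strains 0 of 8 members were called at 24 h (1.48% of genes) and 0 of 8 at 72 h (0.706%). In the edgeR fits of single strains 4 of 24 tests at 24 h and 3 of 25 at 72 h had an unadjusted p under 0.05, and DESeq2 called 0 at each time. Over all strains 1 of 8 had such a p at each time, Il18 at 24 h and Il1a at 72 h, and DESeq2 called 0.

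Il1r1 in C57BL/6J at 24 h ranged from 4.37 to 7.86 CPM after CHI (median 4.87, n = 14) and from 5.21 to 7.48 CPM in sham (median 6.35, n = 6). Here 10 of 14 CHI mice lay below every sham mouse, with a log2 fold change of -0.27 (-0.51 to -0.02, adjusted p = 0.506). At 72 h the values were 3.89 to 7.82 CPM (median 4.47) and 3.56 to 7.04 CPM (median 4.15), with a log2 fold change of 0.09. Over the 8 comparisons of a strain at 24 or 72 h, the log2 fold change of Il1r1 lay between -0.31 and 0.09, that of Myd88 between -0.07 and 0.18 and that of Il1rap between -0.15 and 0.07. Il33 lay between -0.21 (C57BL/6J, 24 h, adjusted p = 0.285) and 0.29 (gKO, 24 h, adjusted p = 0.283), and Il18 between -0.32 and 0.16. Over all strains at 24 h Il18 was -0.17 (SE 0.06, -0.29 to -0.05, adjusted p = 0.126).

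Sham medians of Il1b and Il18 at 9 h lay apart from those at later times. In sham mice at 9 h the group medians of Il1b were 0.317 to 0.402 CPM, against 0.115 to 0.217 CPM at 24 and 72 h, and those of Il18 were 7.40 to 8.30 CPM, against 9.20 to 11.9 CPM. In CHI mice the Il18 medians were 7.11 to 8.25 CPM at 9 h and 9.24 to 11.7 CPM later. Those of Il1b were 0.294 to 0.510 CPM at 9 h and 0.113 to 0.334 CPM later, and in nRestore CHI mice the median at 72 h (0.334 CPM) was above that at 9 h (0.294 CPM). These were not tested, since time after surgery, experiment and time of day cannot be told apart between 9 h and later mice. The difference of the CHI effect between males and females was called for 0 of 10 members at 9 h (0% of genes), 0 of 8 at 24 h (0%) and 0 of 8 at 72 h (0.00543%). Of those 26 tests, 2 had an unadjusted p under 0.05 in edgeR, Il1rap at 24 h and Il18 at 72 h, and DESeq2 called 0.

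Other genes of the pathway were taken from lists of 25 signalling genes, 20 IL-1 response genes, 9 genes of cytokine maturation and release, 6 further receptors and 6 further ligands and soluble inhibitors. In C57BL/6J at 9 h, 6 of 25 signalling genes tested were higher and 0 lower, with a list median of 0.15, where 14.1% of all genes were called. Among them were Nfkbia (0.63), Nfkbie (0.69) and Nfkbib (0.31), inhibitors that hold NF-κB in the cytoplasm, the kinase Irak2 (0.34) and its partner Tollip (0.25). Of 12 IL-1 response genes tested, 5 were higher and 0 lower, with a list median of 0.88: the siderophore-binding Lcn2 (3.79), the chemokines Ccl2 (3.61) and Cxcl10 (1.83), the metalloreductase Steap4 (1.63) and the adhesion molecule Icam1 (0.86). Of 7 maturation genes tested Casp1, the protease that cuts pro-Il1b and pro-Il18, was lower (-0.60, adjusted p = 0.00341), and of 4 receptors the synaptic receptor-like Il1rapl1 was higher (0.28), while 1 of the 6 ligands and inhibitors was tested and not called.

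In the IL-1R1 strains fewer of these genes were called at 9 h, in comparisons that called 0.199% of all genes in gKO, 7.34% in eRestore and 0.608% in nRestore mice. Of the response genes, 1 of 11 was called in mice labelled gKO, Ackr1 (0.37), a vessel-wall receptor that binds chemokines, 0 of 10 in eRestore and 0 of 10 in nRestore mice, with list medians of 0.26, 0.06 and 0.52. In the mice labelled gKO, Lcn2 gave 3.08 (SE 0.88, adjusted p = 0.149) and Cxcl10 2.86 (SE 0.73, adjusted p = 0.11), neither of which passed. Signalling genes called were 0 of 25 in gKO, 1 of 25 in eRestore (Tab3) and 0 of 25 in nRestore mice. In sham mice Lcn2 was lower than in C57BL/6J in 2 of 3 strains, with log2 differences of -2.97 in gKO (adjusted p = 0.000883) and -3.59 in nRestore mice (adjusted p = 0.000303), while that in eRestore mice was -0.82 (adjusted p = 0.469).

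Markers of other cells moved at 9 h as well. The comparisons called 14.1% of all genes in C57BL/6J, 7.34% in eRestore mice and 23.9% over all strains. In C57BL/6J, 3 of 6 microglial markers were lower after CHI, and their summed level was 150 to 320 TPM against 226 to 393 TPM in sham. Of 7 endothelial markers 2 were higher and 2 lower, with sums of 211 to 312 TPM against 184.6 to 255 TPM. Of 5 astrocyte markers 2 were higher, Gfap (1.12) and Aldh1l1 (0.38), with sums of 552 to 888 TPM against 553 to 673 TPM. Choroid plexus sums ran from 5.20 to 2523 TPM against 16.7 to 5996 TPM and none of the 5 was called in C57BL/6J, while over all strains all 5 were lower. None of 5 neuron and 5 oligodendrocyte markers was called in C57BL/6J. In eRestore mice 3 of 5 meningeal markers were lower, with sums of 7.87 to 26.0 TPM against 8.30 to 48.3 TPM. The neutrophil marker Ly6g was at 0 in all but 5 of 200 mice, and the 7 blood and leukocyte markers summed to 2.46 to 561 TPM after CHI and 5.98 to 202 TPM in sham C57BL/6J mice. Their part in the changes of Il1r1, Myd88 and Il1rn was not tested beyond the fits with meningeal and choroid plexus sums. In those fits the calls of Il1r1 and Myd88 over all strains held, as did that of Il1rn, which only CHI mice carried past the filter.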

How the data were processed

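One hemisphere of each of 200 mice was measured by poly(A) RNA-seq. The authors deposited estimated counts and TPM per gene, and their submitters' processing notes name FastQC, STAR, Salmon, DESeq2 and GRCm39. The annotation release and strandedness are not given in the sources used here. Columns were matched to mice by their labels, and all were used. Estimated counts were rounded, and a gene was tested if it reached 10 counts in a number of mice equal to the smallest group, using edgeR 4.0.16 (R 4.3.3) with TMM scaling, a robust quasi-likelihood fit and Benjamini-Hochberg adjustment.

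CHI was compared with sham by strain and time with sex and age as covariates, as in the study's methods, and sham strains with time and sex. Only some of the main fits were tested on simulated data, and the alternatives were not. Members below the filter were tested by exact two-sided permutation of CPM. DESeq2 1.42.0 (also with gene-length offsets), other filters, scalings and covariates, and leaving out mice were alternatives. Chosen after the data were seen were the exact tests, the marker sums as covariates, sham mice of a single time, and leaving out the mice of another sex than labelled or the 2 sham mice with outlying Il1r1. Replicate numbers only name mice, and nothing beyond the labels says how littermates were spread.

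All 10 members are named in every comparison, and of other lists at most 5 genes with the smallest p among those called in C57BL/6J or over all strains. Where 5 or fewer others were called they were named after their values were seen. Members and lists were chosen with earlier results of these data known. Gene positions are from GENCODE (GRCm39) and upstream sequences from RefSeq (GRCm38.p6).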

Additional observations from a re-analysis of the deposited data

Results flagged for a closer look

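In 18 groups of a member, strain, surgery and time, the highest or lowest mouse stood far from its group by Dixon's ratio. The ratio marks about 1 in 20 groups by chance only where values are normally distributed. That rate does not hold for scarce members, since a mouse with a few counts stands apart where the others have 0. No excess over chance is therefore read from these 18 groups. Among abundant members these were Il1r1 in an eRestore sham mouse at 9 h (16.7 CPM, group median 6.85) and a gKO sham mouse at 9 h (14 CPM, median 7.56). Il18 stood apart in a gKO sham mouse at 72 h (14.6 CPM, median 9.56), Il33 in an eRestore sham mouse at 72 h (98.8 CPM, median 74.0) and Myd88 in an nRestore sham mouse at 72 h (5.3 CPM, median 3.69).

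The other such values were of scarce members. For Il1rn they were 0.18 CPM in an eRestore sham mouse at 9 h, 0.151 CPM in a C57BL/6J sham mouse at 24 h, 0.393 CPM in an eRestore CHI mouse at 24 h, 0.0507 CPM in a gKO sham mouse at 72 h and 0.0995 CPM in an nRestore CHI mouse at 72 h, each against a group median of 0. For Il1r2 they were 0.106 CPM in an nRestore sham mouse at 9 h, 0.319 CPM in a gKO sham mouse at 24 h, and 0.479 CPM and 0.433 CPM in an eRestore and an nRestore CHI mouse at 24 h. Il1b was at 0.0534 CPM in an nRestore sham mouse at 9 h and 0.742 CPM in an eRestore CHI mouse at 24 h, Il1a at 0.37 CPM in an nRestore CHI mouse at 9 h, and Il1rl1 at 0.461 CPM in a gKO sham mouse at 24 h.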

How the results depend on the processing

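The 2 member calls in single strains at 9 h became 1 without covariates and 1 in the largest experiment of each strain, and 1 to 2 when a single mouse was left out, since Myd88 was lost. Il1r1 in C57BL/6J at 9 h was called under every alternative run (log2 fold change 0.94 to 1.16). At 24 h the count of 0 became 1 without a filter on low counts (Il33 in C57BL/6J, -0.22, adjusted p = 0.0094), and the cause was not tested. For differences from C57BL/6J the count of 0 became 1 with DESeq2 and 1 with gene-length offsets, Il1r1 in eRestore mice at 9 h in both. The 7 sham calls became 11 in a fit of all 200 mice, and 3, 4 and 2 with sham mice of 9, 24 or 72 h alone, where fewer mice were fitted. The log2 difference of Il1rap in nRestore sham mice, -0.13, was 0.10 at 9 h alone. Of 213 member comparisons called under no alternative, 74 changed sign under at least one. No paired analysis was possible because replicate numbers only name mice in order and tie no mouse to another. Counts of 0 to 25 limit what can be said of Il1rn.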

Other observations

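Across the 24 group means of log2 CPM, Pearson correlation was computed between each member and 20111 genes, as a description over groups that share experiments, times and strains. The genes most like Il1r1 were Slc2a4 (0.848), Ndn (0.845) and Srsf9 (0.845). Those most like Il1rn were Fkbp5 (0.899), Sesn1 (0.876) and Pik3ip1 (0.874), and those most like Myd88 were Myo15a (0.773), Tgm1 (0.772) and Birc3 (0.761). For Il1b they were led by Slc35f5 (0.947), and for Il18 by Eed (0.942).

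Between sham mice of the IL-1R1 strains and C57BL/6J, 416 genes were called in all 3 strains, in comparisons that share the C57BL/6J mice, and Il1r1 ranked 52nd among them by its largest p. The leading gene was Gabra2, a subunit of the GABA-A receptor, with log2 differences of 1.43 to 1.501, followed by Wdfy1 with 1.97 to 2.02. Both were named after their values were seen.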
